A study of Bos taurus with 4 samples.

Results

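Small RNA from mammary epithelial cells was sequenced in 1 library titled HH and 1 titled LL, beside 1 RNA-seq library of each code. The cells were primary cells of the Chinese Holstein, a dairy breed. The design text gives milk fat percentages of 4.85 for the high cows and 3.41 for the low ones, but no label says which code is which, and the phenotype label has the same value in both small RNA libraries. Directions are therefore given as HH against LL, and each code is 1 library with no replicate. The cells were grown out of mammary tissue and released with enzymes, no other treatment is labelled, and how many cows stand behind a library is not stated. The epithelial markers KRT8, EPCAM, CDH1 and KRT5 were present in the RNA-seq libraries, with 16732, 8142, 6226 and 12968 counts in HH and 10376, 6242, 4441 and 4822 in LL. The epithelial markers KRT18 and KRT14 were lower, with 3104 and 563 counts in HH and 843 and 158 in LL. Counts of the fibroblast gene COL1A1 (1792 and 910) and the leukocyte gene PTPRC (822 and 545) were present too, and the part of such cells in the results was not tested. The data are lists of distinct sequences, called tags, each with its length, its read count and the name of the miRNA precursor it was assigned to. The tags described here are those of 23 nt or longer. There were 910 of them among 3707 distinct tags, 750 in HH and 672 in LL, and they came from 240 of 371 precursors.

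A miRNA is cut from a hairpin precursor by the nucleases Drosha and Dicer, and most mature miRNAs are close to 22 nt. The same hairpin gives rise to variants, called isomiRs, that end or start a base or more away from the main product. A longer 3′ end can come from a shifted cut, in which case the extra bases are those of the hairpin, or from enzymes that add bases afterwards, mostly uridines by the transferases TUT4 and TUT7 and adenosines by the polymerase TENT2. A changed 5′ end matters in another way, because it moves the seed, the bases 2 to 8 through which a miRNA pairs with its targets.

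The tags of 23 nt or longer that carried most reads are printed first, because a few of them held most of the long reads. The letters are those of the deposited lists, with T standing for U, and 5′ is on the left. Capitals mark the bases beyond the most abundant 22 nt tag of the same precursor.
bta-mir-222: agctacatctggctactgggtcT
bta-mir-222: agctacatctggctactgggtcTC
bta-let-7b: tgaggtagtaggttgtgtggttT
bta-mir-221: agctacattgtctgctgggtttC
bta-let-7a-3: tgaggtagtaggttgtatagttT
bta-mir-423: tgaggggcagagagcgagacttT
bta-mir-320-1: aaaagctgggttgagagggcgaA
bta-mir-184: tggacggagaactgataagggtA
bta-mir-103-2: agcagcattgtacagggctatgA
bta-let-7f-2: Tgaggtagtagattgtatagttt
bta-mir-140: Taccacagggtagaaccacggac
bta-mir-423: tgaggggcagagagcgagacttTT

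Tags of 23 nt or longer held 1220019 of 7087726 miRNA reads in HH, or 17.2% (exact Clopper-Pearson 95% interval 17.19 to 17.24%). In LL they held 1660436 of 9059038 reads, or 18.3% (18.30 to 18.35%). These totals are the reads of the listed miRNA tags, not the depth of the libraries, and all intervals cover counting error of reads only, which are not independent molecules. By length, the 22 nt tags just below the limit held 70.5% of the HH reads and 57.0% of the LL reads. The 23 nt tags held 15.6% and 17.4%, the 24 nt tags 1.29% and 0.791%, and tags of 25 nt or longer 0.354% and 0.0995%. The longest tags were 29 nt, with 2 reads in HH and 1 in LL. So nearly all long reads were 1 base longer than 22 nt, and the reads of 24 nt or longer took a larger share in HH.

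The long reads were concentrated in few precursors. The 4 most abundant long tags of each library held 70.5% of the HH long reads and 76.5% of the LL long reads, and the 10 precursors with most long reads held 90.5% and 95.2%. Of the 910 tags, 512 were in both libraries and held 99.95% of the HH long reads and 99.98% of the LL long reads. The 238 tags found in HH alone had 604 reads in all, and the 160 found in LL alone had 265.

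Precursor bta-mir-222, whose miRNA holds down the cell cycle inhibitor p27 in human cells, was the largest source in LL. Its 23 nt tag had 235646 reads in HH and 635556 in LL, and its 24 nt tag had 42906 and 17756. Long tags were 56.04% of its reads in HH (55.9 to 56.2%) and 32.8% in LL (32.8 to 32.9%). Its neighbour bta-mir-221, with the same seed, stood at 61.7% in HH and 58.2% in LL. The 23 nt tag of bta-let-7b was the largest source in HH, with 395558 reads against 351993 in LL. Long tags were 23.94% of the bta-let-7b reads in HH (23.88 to 24.01%) and 20.4% in LL (20.4 to 20.5%). The other precursors among the 10 with most long reads were bta-let-7a-3 (4.76% of its reads in HH and 3.79% in LL), bta-mir-423 (90.0% and 86.4%), bta-mir-320-1 (38.5% and 41.8%), bta-mir-184 (24.99% and 22.1%), bta-mir-103-2 (56.2% and 27.4%), bta-let-7f-2 (99.8% and 99.7%) and bta-mir-140 (30.4% and 2.74%). Apart from bta-let-7f-2, the 10 precursors thus ran from a few percent of their reads to 90.0% in HH and 86.4% in LL. The share of bta-let-7f-2 describes the assignment of a shared 22 nt tag to another copy, as given below. In 8 of the 10 the shares of both libraries lay within 2-fold, and in bta-mir-103-2 and bta-mir-140 they did not.

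Most long reads were plain 3′ extensions. Tags that began with the whole most abundant 22 nt tag of their precursor and went on at the 3′ end held 94.0% of the HH long reads (93.97 to 94.05%) and 96.9% of the LL long reads (96.83 to 96.88%), in 333 distinct tags of 172 precursors. A single base was added in 91.2% of these reads in HH and 96.0% in LL. The reads with 2 added bases made up 6.73% and 3.52%, and those with 3 made up 2.02% and 0.473%. Tags that started upstream of the 22 nt tag held 4.78% and 1.59% of the long reads, and those that started downstream 0.411% and 0.312%. Tags from the other arm of the hairpin, or placed elsewhere, held 0.752% and 1.22%. In 33 precursors with long tags no 22 nt tag was listed, and these held 624 and 373 long reads.

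The first added base was mostly T, that is uridine. It was T in 77.7% of the extended reads in HH (77.6 to 77.7%) and 74.6% in LL (74.6 to 74.7%). C followed at 13.3% in both, then A at 7.30% and 11.4%, and G at 1.79% and 0.691%. These figures were set by a few abundant precursors. Counted by precursor, T was the first added base in 71 of 172, G in 54, A in 26 and C in 21, so T was in 41.3% and G in 31.4% of them. Among the bases of the same 22 nt tags themselves, 27.2% were T, 28.3% G, 24.2% A and 20.3% C. The T reads came mainly from bta-mir-222, bta-let-7b, bta-let-7a-3, bta-mir-423 and bta-mir-342. Of the C reads 82.8% in HH and 92.9% in LL came from bta-mir-221, followed by bta-mir-21, bta-mir-30d, bta-mir-23b and bta-mir-34c. The A reads came from bta-mir-320-1, bta-mir-184, bta-mir-103-2, bta-mir-107 and bta-mir-23a, and the G reads from bta-let-7e, bta-let-7f-1, bta-mir-191, bta-mir-93 and bta-mir-125a.

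Each precursor was listed with 1 continuation only. In all 172 precursors every extended read had the same base at position 23, and all 333 extended tags were the start of the longest extended tag of their precursor. For bta-let-7b, for example, 749199 extended reads had T at position 23 and 0 had another base. Among 4432 pairs of tags of equal length from the same precursor, 0 differed at exactly 1 base. With copies of 1 miRNA merged by name, 3 of 164 names (let-7f, mir-125b and mir-378) had 2 kinds of base at position 23, each under a different copy. Within a precursor the lists therefore hold no competing base at position 23, and bases added by TUT4, TUT7 or TENT2 cannot be seen in them as a second continuation of that precursor. Hairpin sequences were not used here, so whether the continuation equals the hairpin was not tested, and an added U or A that happens to match it cannot be told apart from a longer cut.

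The let-7 family, whose members hold down growth and stem cell genes in many animals, shows how copies were separated. It has 12 precursors here, bta-mir-98 included, and each tag was assigned to 1 of them only. Copies of let-7a and of let-7f share the 22 nt tag, and the bases after it went with the assignment.
bta-let-7a-3: tgaggtagtaggttgtatagttT
bta-let-7a-1: tgaggtagtaggttgtatagttTT
bta-let-7a-2: tgaggtagtaggttgtatagttTA
bta-let-7a-3: tgaggtagtaggttgtatagttTG
bta-let-7f-1: tgaggtagtagattgtatagttG
bta-let-7f-2: tgaggtagtagattgtatagttT
In the let-7a tags that reach position 24, TT, assigned to bta-let-7a-1, made up 2243 of 3373 reads in HH (66.5%, 64.9 to 68.1%) and 1883 of 2900 in LL (64.9%, 63.2 to 66.7%). TA, assigned to bta-let-7a-2, made up 31.9% (30.3 to 33.5%) and 34.4% (32.7 to 36.2%), and TG, assigned to bta-let-7a-3, 1.63% (1.23 to 2.12%) and 0.621% (0.368 to 0.979%). For let-7f, T, assigned to bta-let-7f-2, made up 87.5% (87.1 to 87.9%) in HH and 87.2% (86.7 to 87.7%) in LL, and G, assigned to bta-let-7f-1, the rest. The intervals of the libraries overlap for TT, for TA and for the let-7f copies, and do not overlap for TG.

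Because the shared 22 nt tag was assigned to a single copy, the shares of bta-let-7a-1 (99.9% in HH and 99.4% in LL), bta-let-7a-2 (86.5% and 79.0%) and bta-let-7f-2 (99.8% and 99.7%) describe the assignment. The same holds at the other end for bta-let-7f-1, at 0.403% and 0.346%. With copies summed, long tags were 4.91% of let-7a reads in HH (4.88 to 4.93%) and 3.91% in LL (3.89 to 3.94%), and 3.13% (3.09 to 3.17%) and 2.64% (2.60 to 2.69%) of let-7f reads. The single-copy members differed widely although their 22 nt tags are close. The share was 7.59% and 7.24% in bta-let-7c, 6.13% and 4.44% in bta-let-7d, 6.36% and 3.30% in bta-let-7e, 1.72% and 1.38% in bta-let-7g, and 0.236% and 0.0173% in bta-let-7i. Position 23 was T in bta-let-7b, bta-let-7c, bta-let-7d and bta-let-7g, and G in bta-let-7e, bta-let-7i and bta-mir-98. Precursor bta-mir-98 had 2 long reads of 1093 in HH (0.183%) and 0 of 1438 in LL, which allows a share of up to 0.209%.

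Shares of long tags were compared across the 83 precursors with at least 1000 reads summed over both libraries, which held 99.6% of the HH and 99.7% of the LL long reads. The median share was 7.59% in HH, with quartiles at 1.42 and 43.8%, and 5.14% in LL, with quartiles at 0.489 and 28.2%. Long tags were over 50% of the reads of 14 precursors in both libraries, or of 11 without the let-7 copies bta-let-7a-1, bta-let-7a-2 and bta-let-7f-2, and under 1% in 19 in both. Precursor bta-mir-107 is among the 11, at 66.6% in HH and 67.1% in LL. It had 3 and 7 reads at 21 nt, against 9911 and 12442 in bta-mir-103-2 of the same family. Whether short tags shared by this pair were assigned to bta-mir-103-2 was not tested. Summed over both libraries, the most abundant tag was 22 nt in 48 precursors, shorter in 18 and longer in 17, at 23 nt in 9, 24 nt in 7 and 25 nt in 1. In 3 of these 17, bta-let-7a-1, bta-let-7a-2 and bta-let-7f-2, this again describes the assignment of the shared 22 nt tag to another copy. In the other 14 a long tag had more reads than any 22 nt tag of the precursor.

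Apart from the let-7 copies, the highest shares were in bta-mir-30d, bta-mir-342, bta-mir-423, bta-mir-34c and bta-mir-2344. The tags below show the main products of the first pair, which reached 24 and 25 nt.
bta-mir-30d: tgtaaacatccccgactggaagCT
bta-mir-342: tctcacacagaaatcgcacccaTCT
Precursor bta-mir-30d had long tags in 93.2% of its HH reads (92.3 to 94.1%) and 94.0% of its LL reads (93.5 to 94.5%). The 24 nt tag shown had 2374 reads in HH and 4047 in LL, and the 23 nt tag 688 and 3688. Precursor bta-mir-342 stood at 95.03% in HH (94.7 to 95.3%) and 85.2% in LL (84.3 to 86.0%), and its 25 nt tag had 14669 and 3903 reads. Precursor bta-mir-34c, of a family switched on by p53, stood at 83.0% and 81.4%, and bta-mir-2344 at 93.6% and 79.7%.

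The lowest shares were in bta-mir-128-2, bta-mir-760, bta-mir-152, bta-mir-101-1, bta-mir-100, bta-mir-27a, bta-mir-98 and bta-mir-125b-2. In bta-mir-128-2 there was no long read among 1082 in HH and 2309 in LL, which allows shares of up to 0.277% and 0.130%. It had 1012 and 1899 reads at 21 nt, but 1 and 6 at 22 nt. Its copy bta-mir-128-1 had 0% of its reads at 21 nt, 208 and 474 reads at 22 nt, and 14 and 15 at 23 nt. The share of bta-mir-128-2 can therefore describe the assignment of tags between copies, which was not tested. In bta-mir-760 there was none among 324 and 2124, which allows up to 0.926% and 0.141%. Precursor bta-mir-152 had 1 long read of 10951 in HH and 0 of 2129 in LL, and bta-mir-125b-2 had 20 of 17633 (0.113%) and 21 of 16788 (0.125%). The T extension of the bta-mir-125b-2 22 nt tag, with 94 and 81 reads, was assigned to its copy bta-mir-125b-1. That copy had 97 long reads of 138 in HH and 86 of 193 in LL. The share of bta-mir-125b-2 thus describes the assignment in part. Related precursors could stand apart: bta-mir-125a, with the same seed as bta-mir-125b-2, had a share of 39.4% in HH and 2.96% in LL.

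Precursors that lie side by side in the genome often differed in their shares. By their places in RefSeq's table of bovine genes (assembly ARS-UCD2.0), 30 of the 83 precursors lay in 13 clusters with gaps of at most 10000 bases between neighbours. In the cluster of bta-mir-23b, bta-mir-24-1 and bta-mir-27b, the shares were 37.6%, 0.757% and 1.89% in HH and 19.8%, 0.801% and 2.09% in LL. Precursor bta-mir-24-1 had 71 long reads in HH and 149 in LL. Its copy bta-mir-24-2 had 72 long reads of 82 in HH and 77 of 90 in LL. Whether the assignment of tags between these copies sets the share of bta-mir-24-1 was not tested. Nearly all long reads of bta-mir-23b lay on the arm opposite to its single most abundant tag, which is 21 nt. On that arm long tags were 43.0% in HH and 41.7% in LL. That arm held 11867 of its 13591 reads in HH and 6298 of 13314 in LL. In bta-mir-27b too the arm opposite to its most abundant tag held 353 of 354 long reads in HH and 373 of 377 in LL. Next to bta-let-7e lie bta-mir-99b, at 1.91% and 3.34%, and bta-mir-125a. Precursors bta-mir-221 and bta-mir-222 were close in HH and apart in LL.

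The next comparison is between the libraries, within each precursor, so that its abundance does not enter. The ratio of the HH share to the LL share was computed for the 68 precursors with at least 1000 reads and 20 long reads, with an exact interval from the part of the long reads that came from HH. With the whole interval past 2-fold, the share of long tags was higher in HH in 16 precursors (23.5% of those compared) and higher in LL in 1 (1.47%). The other 51 were neither. The median ratio was 1.21, with quartiles at 0.992 and 2.28, and 50 of the 68 ratios were above 1.

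The largest called ratios, ranked by the bound nearest to no change, were those of bta-mir-1307, bta-mir-660, bta-mir-125a, bta-mir-140, bta-let-7i and bta-mir-191. Precursor bta-mir-1307 had 169 long reads of 2534 in HH (6.67%, 5.73 to 7.71%) and 10 of 4477 in LL (0.223%, 0.107 to 0.410%), a ratio of 29.9 (15.8 to 63.4). Precursor bta-mir-660 had 183 of 1227 (14.9%, 13.0 to 17.0%) and 6 of 1299 (0.462%, 0.170 to 1.003%), a ratio of 32.3 (14.6 to 89.1). Both counts in LL are small, and the intervals are wide. Precursor bta-mir-125a, a relative of the worm lin-4 miRNA that times development, had 1012 of 2568 (39.4%, 37.5 to 41.3%) and 120 of 4057 (2.96%, 2.46 to 3.53%), a ratio of 13.3 (11.0 to 16.2). Precursor bta-mir-140 had 28955 of 95401 (30.4%, 30.1 to 30.6%) and 3849 of 140442 (2.74%, 2.66 to 2.83%), a ratio of 11.1 (10.7 to 11.5). Precursor bta-let-7i had 694 long reads of 294233 and 41 of 236437, a ratio of 13.6 (9.92 to 19.1), although the share was low in both. Precursor bta-mir-191 had 2459 of 4275 (57.5%, 56.02 to 59.01%) and 571 of 8865 (6.44%, 5.94 to 6.97%), a ratio of 8.93 (8.15 to 9.80). In all 6 the intervals of the shares are far apart.

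The tags that carried these differences are shown for bta-mir-191, bta-mir-125a, bta-mir-93 and bta-mir-181a-1, with the added bases in capitals. Precursor bta-mir-93 belongs to a cluster with bta-mir-25 and bta-mir-106b that is known for promoting the cell cycle, and the miR-181 family is known in lymphocyte development.
bta-mir-191: caacggaatcccaaaagcagctG
bta-mir-191: caacggaatcccaaaagcagctGT
bta-mir-125a: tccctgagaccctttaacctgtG
bta-mir-125a: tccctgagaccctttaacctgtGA
bta-mir-93: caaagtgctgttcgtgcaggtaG
bta-mir-181a-1: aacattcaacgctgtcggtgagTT
bta-mir-181a-1: aacattcaacgctgtcggtgagTTT
The bta-mir-191 tags had 1565 and 645 reads in HH and 431 and 88 in LL, and those of bta-mir-125a had 622 and 385 in HH and 78 and 41 in LL. The bta-mir-93 tag had 1425 reads in HH and 124 in LL, in a precursor with 2864 and 1602 reads in all. The bta-mir-181a-1 tags had 980 and 1871 reads in HH and 776 and 424 in LL, so the longer one led in HH and the shorter one in LL.

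The other precursors with a higher share in HH were bta-mir-93 (6.22, 5.20 to 7.49), bta-mir-21 (4.32, 4.13 to 4.53), bta-mir-16a (10.6, 3.45 to 52.9), bta-mir-29b-1 (3.92, 3.04 to 5.14), bta-mir-155 (3.46, 2.91 to 4.11), bta-mir-10a (3.04, 2.63 to 3.52), bta-mir-204 (5.45, 2.62 to 12.4), bta-mir-181a-1 (2.75, 2.57 to 2.93), bta-mir-2284x (2.31, 2.08 to 2.58) and bta-mir-103-2 (2.05, 2.01 to 2.09). The LL count of bta-mir-16a was 3 long reads. Tags of 18 to 20 nt were 15.0% of its reads in HH and 51.8% in LL. In bta-mir-16b, of the same family, they were 0.0840% and 0%, and its ratio of long shares was 0.948 (0.711 to 1.28). Whether short tags shared by this pair were assigned to bta-mir-16a was not tested. For mir-103 and mir-107 summed as a family, the shares were 57.8% in HH and 34.7% in LL, which lie within 2-fold. Tags of 18 to 20 nt were 4.12% and 17.0% of the reads of bta-mir-103-2, against 0.0729% and 0.0253% in bta-mir-107. The call of bta-mir-103-2 can therefore depend on how tags were assigned within this pair, which was not tested. Among the called precursors bta-mir-21, a miRNA raised in many tumours, had 14573 long reads of 59300 in HH and 2155 of 37918 in LL. For bta-mir-155, an immune regulator, the shares were 63.2% and 18.3%. In 10 precursors the most abundant tag of HH was 23 nt or longer and that of LL was not, bta-mir-222, bta-mir-140 and bta-mir-191 among them. The reverse held for bta-mir-365-2 alone.

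The 1 precursor with a higher share in LL was bta-mir-25, at 452 of 8998 reads in HH (5.02%, 4.58 to 5.49%) and 1723 of 7138 in LL (24.1%, 23.1 to 25.1%), a ratio of 0.208 (0.187 to 0.231). All but 1 of its long reads in HH and all but 2 in LL came from a single 23 nt tag of the other arm, with 451 and 1721 reads.
bta-mir-25: aggcggagacttgggcaattgct
Within that arm long tags were 71.7% of the reads in HH and 70.3% in LL. The arm itself held 630 of the 8998 reads in HH and 2448 of the 7138 in LL. The share of long tags was therefore close within the arm, while the arm's part of the reads differed, and with only the arm of each precursor's most abundant tag 0 precursors were higher in LL. Under that limit bta-mir-204 was no longer compared, since 26 of its 33 long reads in HH and 6 of its 10 in LL lay on the other arm.

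The share of short reads was larger in LL in most precursors, called or not. It is a part of the same total as the long share, so a higher long share by itself leaves less room for it. Tags of 18 to 20 nt held 6.85% of the HH reads and 19.0% of the LL reads, and their share was larger in LL in 58 of the 68 precursors and in 15 of the 16 with a higher long share in HH. In bta-mir-125a it was 28.1% in HH and 90.3% in LL, in bta-let-7i 48.2% and 89.8%, and in bta-mir-21 28.6% and 73.5%. With tags of 22 nt or longer as the total, a choice made after seeing the data, 4 of 61 precursors were higher in HH, namely bta-mir-1307, bta-mir-140, bta-mir-191 and bta-mir-93, in place of 16 of 68. In bta-mir-21 the order turned, to 50.9% in HH and 60.4% in LL, and in bta-mir-125a the shares were 71.6% and 57.4%. Precursors bta-mir-660 and bta-mir-155 had too few reads of that length to enter. The part of the short reads in the difference was not tested beyond this, and with 1 library per code it cannot be told apart from the code.

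The pooled share went the other way from most precursors. It was 17.2% in HH and 18.3% in LL, although 50 of 68 precursors had the higher share in HH. Precursor bta-mir-222 alone held 39.4% of the LL long reads and 23.3% of the HH long reads, and it made up 22.01% of all LL reads against 7.15% of HH reads. Without it the shares were 14.22% and 14.23%. With the precursor composition of HH given to both libraries, the LL share was 13.3% against 17.2% in HH. With the composition of LL given to both, the HH share was 25.5% against 18.3% in LL.

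Some long tags were longer at the 5′ end, which shifts the seed. The tags that started 1 base upstream of the 22 nt tag had 58009 reads in HH and 26016 in LL, of which 22400 and 13495 came from bta-let-7f-2, where the assignment described above sets the 22 nt tag. Of the rest, bta-mir-140 had most, followed by bta-mir-199a-2 and bta-mir-29a. The long tags are printed above the 22 nt tags, with bases 2 to 8 in capitals.
bta-mir-140, long: tACCACAGggtagaaccacggac
bta-mir-140, 22 nt: aCCACAGGgtagaaccacggac
bta-mir-199a-2, long: tACAGTAGtctgcacattggtta
bta-mir-199a-2, 22 nt: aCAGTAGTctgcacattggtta
bta-mir-29a, long: cTAGCACCatctgaaatcggtta
bta-mir-29a, 22 nt: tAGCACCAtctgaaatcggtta
In each pair the 3′ ends are the same and the seed moves by 1 base.

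The upstream start of bta-mir-140, a miRNA best known from cartilage, made up 56.04% of the reads of that arm in HH (55.7 to 56.4%) and 17.9% in LL (17.7 to 18.1%), over all lengths. Among reads with this start, 50.4% were 23 nt or longer in HH and 4.88% in LL. The tag shown had 20846 reads in HH and 940 in LL, and the same tag with 1 further base had 6073 and 282. In bta-mir-199a-2 the upstream start made up 19.4% in HH (19.1 to 19.7%) and 16.4% in LL (16.1 to 16.7%), and its 23 nt tag had 3902 and 4371 reads. In bta-mir-29a, of a family known to hold down collagen genes, it made up 1.63% (1.57 to 1.68%) and 1.84% (1.77 to 1.90%). The libraries stood far apart in bta-mir-140 and close together in the other pair.

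Families differed in their summed share of long tags. In the mir-146 family it was 93.2% in HH (87.9 to 96.7%) and 47.1% in LL (32.9 to 61.5%), from 138 and 24 long reads, too few to enter the comparison above. Among larger families it was highest in the mir-30 family (86.3% in HH and 90.9% in LL, 6 precursors), the mir-181 family (82.4% and 43.9%, 7 precursors), mir-103 with mir-107 (57.8% and 34.7%, 3 precursors) and mir-221 with mir-222 (57.7% and 36.8%). The let-7 family stood at 10.3% and 8.99%, and bta-mir-21 at 24.6% and 5.68%. The group of mir-10, mir-99, mir-100 and mir-125 stood at 7.06% and 3.17%, mir-143 with mir-145 at 6.82% and 3.46%, mir-15 with mir-16 at 6.35% and 3.88%, and the mir-29 family at 2.21% and 1.93%. The lowest were mir-148 with mir-152 (0.294% and 0.905%) and the mir-26 family (0.386% and 0.160%, 3 precursors). For the mir-200 family, which marks epithelial cells, 1 read in HH and 2 in LL were listed, none of them long, so no share could be read.

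Enzymes that add or remove bases at RNA 3′ ends were looked up in the RNA-seq libraries, which held 17369144 counts in HH and 16318951 in LL. Of 12 genes listed for this purpose, 11 were in the table and 10 had at least 100 summed counts. None of the 10 had its whole interval past 2-fold. Over all 12804 genes with that many counts, 240 (1.87%) were past it toward HH and 128 (1%) toward LL. The median log2 ratio of HH over LL was 0.06 for the 10 listed genes and, for all 12804, −0.01. TUT4 and TUT7, the main enzymes that add uridines, had log2 ratios of 0.05 (exact interval −0.06 to 0.16) and 0.08 (−0.03 to 0.18), with 1400 and 1231 counts for TUT4 and 1528 and 1317 for TUT7. TENT2, which adds adenosines, had 506 and 529 counts and a log2 ratio of −0.20 (−0.38 to −0.02). The exonucleases PARN, DIS3L2 and ERI1 had −0.00, 0.08 and −0.16. The widest departures were TENT4A at 0.30 (0.14 to 0.46) and TUT1 at −0.26 (−0.50 to −0.01), and TENT4B and MTPAP had 0.10 and 0.17. LIN28A, which binds let-7 precursors, had 0 counts in HH and 2 in LL, and LIN28B was not analysed here. A whole interval within 2-fold was found for each of the 10 genes at the level of RNA, and protein was not measured.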

How the data were processed

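The authors deposited unnormalized gene counts of both RNA-seq libraries in 1 table and, for each small RNA library, a list of tags with their lengths and read counts. Per the labels' protocols, RNA over 18 nt was recovered and an Ion Total kit was used, while the small RNA samples are titled Solexa. No source used here gives the trimming, aligner, mismatch setting or miRNA database. Every listed tag has the class miRNA, and other reads were not analysed here.

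The members and gene and family lists were chosen with earlier results of these data known. Tags were joined by sequence. A tag was placed on the most abundant 22 nt tag of its precursor, over both libraries, where they shared at least 12 bases without mismatch. Shares have exact Clopper-Pearson 95% intervals (scipy 1.17.1). Ratios of shares take the interval of HH long reads among all long reads, given both totals. Gene counts were scaled with TMM (edgeR 4.0.16 in R 4.3.3), with DESeq2 1.42.0 size factors as an alternative. A limit for a count of 0 is 3 reads. The steps were tested on simulated data. RefSeq gene names matched 236 of 240 precursors and were used for neighbours only. Some genes are listed under older symbols, such as ZCCHC11 for TUT4. Named precursors and tags follow a fixed rule: the most abundant, the highest and lowest shares, and the called ones by interval bound. Cluster neighbours, bta-mir-365-2, bta-mir-199a-2, bta-mir-128-1, bta-mir-125b-1, bta-mir-24-2, bta-mir-29b-2, the other called precursors and the cell type markers lie outside it. They were named after values were seen.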

Additional observations from a re-analysis of the deposited data

How the results depend on the processing

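No paired analysis was possible because each group is 1 library, so no replicate could be left out either. The shares of 17.2% (HH) and 18.3% (LL) moved to 1.64% and 0.890% at 24 nt or longer, 39.3% and 31.6% without the let-7 family, 26.3% and 19.9% as a mean over precursors, and 19.6% and 24.3% of reads of 22 nt or longer. Without bta-mir-222 they were 14.22% and 14.23%, and at the other library's precursor composition 25.5% (HH) and 13.3% (LL). The difference, HH minus LL, was −1.12 percentage points, and 0.754 at 24 nt or longer, 7.70 without let-7, 6.46 as a mean, −4.70 of reads of 22 nt or longer, −0.0106 without bta-mir-222, and 3.90 and 7.16 at the HH and LL composition. So its sign depends on the weighting of precursors and on the shortest length counted as long. The median shares per precursor of 7.59% and 5.14% were 6.25% and 2.74% in leading arms, 0.300% and 0.129% at 24 nt or longer, 7.22% and 3.91% with copies summed, and 16.5% and 15.0% of reads of 22 nt or longer. The 16 precursors higher in HH became 8 at 4-fold, 6 with at least 10000 reads, 10 at 24 nt or longer, of which 7 were among the 16, and 4 of reads of 22 nt or longer, and between 16 and 21 under the other 6 settings. In leading arms, those of the most abundant tag, 15 of the 16 were among those reported, and bta-mir-204 was not. The 1 higher in LL became 0 in leading arms, and at 24 nt or longer it was not bta-mir-25, which had too few reads there. With reads of 22 nt or longer the ratio turned to 0.843 in bta-mir-21 and 0.923 in bta-mir-29b-1, and the latter was 0.0423 at 24 nt or longer. Behind that value were 4 reads at 24 nt in HH, and 20 at 24 nt and 1 at 26 nt in LL. The 24 nt TT extension of the same 22 nt tag, with 96 reads in HH and 0 in LL, was assigned to the copy bta-mir-29b-2. The value of 0.0423 thus describes the assignment in part. The share of T among first added bases, 77.7% and 74.6%, was 47.1% with equal weight for the 68 precursors with at least 20 extended reads in each library (32 with T, the same in both libraries because each precursor has 1 base), 60.8% and 65.2% without let-7, 77.1% and 75.1% with exactly 1 added base, 78.2% and 74.9% with copies summed, and 70.3% and 57.2% without bta-mir-222. The gene list had 0 calls under every setting run. Totals of 22 nt or longer, summed copies, set compositions, a minimum of 10 reads per tag and omission of bta-mir-222 were chosen after seeing the data. Comparisons with hairpins and annotated mature miRNAs were not run, since those sequences were not used here. Reads of 24 nt or longer were too few for 7 of the 17 called precursors, and the cause of each change was not tested beyond these settings.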

Other observations

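In 3 precursors with abundant 3′ extensions, the tags of the other hairpin arm were often long too. In bta-mir-221 long tags were 69.9% of the other arm's reads in HH and 81.3% in LL, with 5229 and 13968 long reads. The other arm of bta-mir-423 stood at 83.3% and 67.3%, and that of bta-mir-342 at 96.2% and 73.5%. These arms were chosen after their values were seen.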
